A study of Mus musculus with 9 samples.

Results

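The mitochondrial ribosome protein genes are the nuclear genes whose symbol is Mrpl or Mrps, a number and at most 1 further letter. There were 77 of them among the 47480 genes of the count table, 48 named for the large subunit (Mrpl) and 29 for the small subunit (Mrps). The 9 RNA sequencing libraries came from blood-forming cells taken from C57BL/6 mice in 4 groups: LSK total RNA (2 libraries), LSK polysomal RNA (2), MP total RNA (2) and MP polysomal RNA (3). LSK, labelled as stem cells, is the usual name for lineage-negative cells that carry Sca-1 and Kit, a population that includes the blood stem cells. MP cells are labelled as progenitors, without the abbreviation being spelled out. All cells, those for total RNA included, were exposed to 100 ug/ml cycloheximide, which halts ribosomes on the message, for 10 min. Lysates were separated on gradients of 10 to 60% sucrose into 10 fractions, of which fraction 7 gave the polysomal RNA, and total RNA was kept back before the gradient. The labels do not say whether the libraries of a group came from separate mice or sorts, and each p-value below reflects nothing but how far these libraries scatter.

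Mitochondria carry a ribosome of their own, which translates the few proteins encoded by the mitochondrial genome, all of them subunits of the respiratory chain and the ATP synthase. Its RNAs are mitochondrial, but its proteins are encoded in the nucleus, translated on cytosolic ribosomes and imported. The polysomal fraction therefore bears on the reading of their messages by cytosolic, not mitochondrial, ribosomes. Part of the proteins descend from bacterial ribosomal proteins, and part are found only in mitochondrial ribosomes. Blood stem cells are known for low mitochondrial activity relative to dividing progenitors. In bulk RNA, fewer cells of a type and less RNA per cell cannot be told apart.

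For 56 of 76 members the largest difference between libraries of 1 group exceeded the largest difference between group means. Single libraries scatter more than means of libraries, so this comparison leans toward that outcome for any gene. The count was not made over all genes, whose median largest log2 difference within a group was 1.19, against 1.02 over members. Differences between libraries went with the base composition of each gene's coding start, except between the MP total libraries. None of the 76 members that could be tested passed an adjusted p of 0.05 in any of 7 comparisons. In total RNA, 73 of 76 had a higher fitted level in MP than in LSK cells, against 49.8% of all tested genes. Their median log2 change was 0.68, and 0.32 when libraries were scaled by their totals alone. The spread between libraries is described before the comparisons, because it touches all of them.

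The coding starts of 6 members, picked with their values known, are shown as examples. Each line holds the first 150 bases of the coding sequence, 5′ to 3′, from the GENCODE M21 transcripts (GRCm38), beginning at the start codon. Capitals mark unbroken runs of at least 5 G or C bases. The first 3 genes had the widest or nearly the widest differences between libraries, and the last 3 had GC-poor starts, though not the poorest. Mrpl1 and Mrpl50 had the largest falls from LSK polysomal 1 to 2. Mrps17, with the most GC-poor start (42.7%), had a log2 difference of -0.09 between those libraries.
Mrps34: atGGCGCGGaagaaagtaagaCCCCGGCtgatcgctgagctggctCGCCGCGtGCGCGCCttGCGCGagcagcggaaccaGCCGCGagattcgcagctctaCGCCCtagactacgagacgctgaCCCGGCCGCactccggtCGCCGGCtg
Mrps24: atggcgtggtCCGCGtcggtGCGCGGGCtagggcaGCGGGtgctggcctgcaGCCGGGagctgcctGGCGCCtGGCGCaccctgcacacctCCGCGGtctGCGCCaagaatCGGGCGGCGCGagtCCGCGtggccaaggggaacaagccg
Mrps26: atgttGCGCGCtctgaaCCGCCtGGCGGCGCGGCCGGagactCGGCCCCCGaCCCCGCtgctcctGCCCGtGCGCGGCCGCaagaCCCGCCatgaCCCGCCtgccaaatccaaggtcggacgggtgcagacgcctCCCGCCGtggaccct
Mrpl1: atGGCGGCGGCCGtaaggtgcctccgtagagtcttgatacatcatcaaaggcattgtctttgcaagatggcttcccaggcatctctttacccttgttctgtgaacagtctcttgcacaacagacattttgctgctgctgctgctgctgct
Mrpl50: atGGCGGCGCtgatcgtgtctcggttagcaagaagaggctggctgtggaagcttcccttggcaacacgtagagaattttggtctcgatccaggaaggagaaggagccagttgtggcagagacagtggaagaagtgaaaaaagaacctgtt
Mrpl42: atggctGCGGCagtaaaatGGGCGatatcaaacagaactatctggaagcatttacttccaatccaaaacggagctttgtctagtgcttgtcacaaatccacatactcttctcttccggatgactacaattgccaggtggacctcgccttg
In the start of Mrps34 there were 9 such runs, and in those of Mrps24 and Mrps26 there were 10 each. The starts of Mrpl1 and Mrpl50 held 1 run each and that of Mrpl42 held 2. GC content of the 150 bases was 68.7% in Mrps34, 74.7% in Mrps24, 74.0% in Mrps26, 50.7% in Mrpl1, 51.3% in Mrpl50 and 46.0% in Mrpl42.

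These windows are exonic. The window of Mrps34 lies in 1 exon at chr17:24895168-24895317 on the plus strand, and that of Mrps26 in 1 exon at chr2:130563779-130563928, plus. The window of Mrps24 spans 3 exons at chr11:5707368-5707662, minus. Those of Mrpl1 (chr5:96210163-96213905, plus) and Mrpl50 (chr4:49514520-49521053, minus) span 2 exons each, and that of Mrpl42 (chr10:95493697-95500449, minus) spans 3.

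Mrps34, a protein particular to the mitochondrial small subunit, had the widest range of all tested members. Its levels, in CPM (read counts relative to library size, adjusted with edgeR's TMM factors), were 1.20 and 20.5 in LSK total 1 and 2, and 0.199 and 58.9 in LSK polysomal 1 and 2. They were 9.03 and 31.7 in MP total 1 and 2, and 0.342, 3.37 and 20.1 in MP polysomal 1, 2 and 3. The lowest value rested on 6 reads and the highest on 1419, a 296-fold ratio, and the groups overlapped in every comparison. Of the exonic bases of Mrps34, 77.8% are shared with neighbouring genes (Nme3, Mapk8ip3), so reads there may have been split or dropped in counting.

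Mrps24, the counterpart of the bacterial small subunit protein S3, stood at 2.57 and 78.3 CPM in the LSK total libraries and at 1.46 and 98.0 CPM in the LSK polysomal libraries. In MP cells it stood at 15.7 and 140.3 CPM in total RNA and at 2.22, 6.28 and 57.1 CPM in polysomal RNA. Mrps26, particular to mitochondria, stood at 8.87 and 90.8 CPM in LSK total RNA, at 3.32 and 42.7 CPM in LSK polysomal RNA, at 44.2 and 136 CPM in MP total RNA and at 4.71, 18.1 and 83.6 CPM in MP polysomal RNA. For both genes library 1 was the lowest of its group in all 4 groups. The ratio of the highest to the lowest library was 96.0 for Mrps24 and 41 for Mrps26.

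Mrpl1, the counterpart of bacterial L1 at the ribosome's L1 stalk, ran the other way in polysomal RNA. It stood at 75.1 and 16.1 CPM in LSK polysomal 1 and 2, against 53.1 and 44.3 CPM in LSK total RNA, 38.7 and 41.9 CPM in MP total RNA, and 91.2, 79.2 and 46.8 CPM in MP polysomal RNA. Mrpl50 likewise stood at 137 and 40.8 CPM in LSK polysomal 1 and 2. Mrpl42 stood at 122 and 105 CPM in those libraries, 116 and 119 CPM in LSK total RNA, 112 and 152 CPM in MP total RNA, and 148, 153 and 81.5 CPM in MP polysomal RNA.

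Mrpl49 was the steadiest member, with levels between 84.7 and 118 CPM in the 9 libraries and at most a 1.32-fold difference within a group. For 8 members the differences within groups all stayed under 1.5-fold, among them Mrpl46, Mrpl40, Mrpl23 and Mrps21. Mrpl49, Mrpl40, Mrps21 and, further on, Mrps11 were chosen after their values were seen. Mrpl46, a protein of the large subunit's central protuberance, ranged from 50.2 to 109 CPM.

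**Figure D1:**
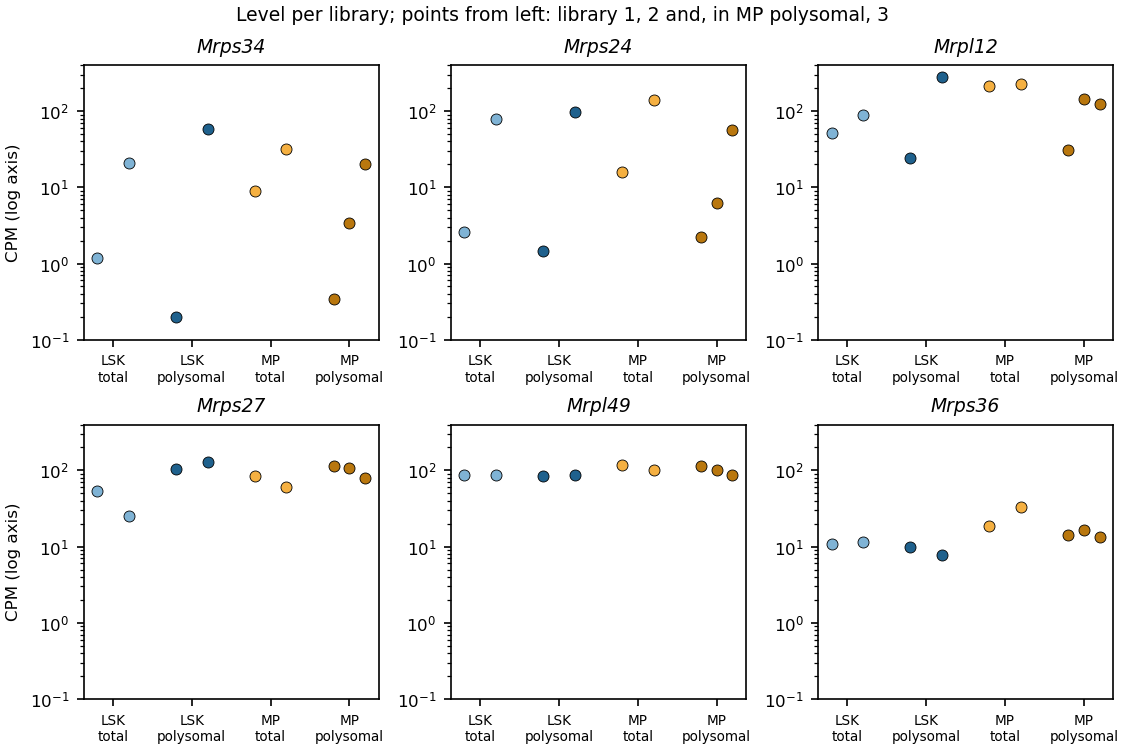
Levels of 6 members in each library as CPM on a log axis, by group; each point is 1 library, ordered from left by library number, with no bars. Mrps34 ran from 0.199 to 58.9 CPM between the LSK polysomal libraries, while Mrpl49 stayed between 84.7 and 118 CPM.

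Across members, the largest log2 difference between libraries of 1 group exceeded the largest difference between group means in 56 of 76, with medians of 1.02 and 0.83. Single libraries scatter more than means of libraries, and no such count was made over all genes, so it does not set the members apart. Within a group, 39 members differed over 2-fold, 19 over 4-fold and 12 over 8-fold. Over all 16426 tested genes the median largest difference within a group was 1.19, below which the members' median lay, and 21.7% differed over 4-fold, against 25% of the members.

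Between LSK polysomal 2 and 1, the log2 difference had a Pearson r of 0.75 with the GC content of the first 150 coding bases over 76 members. The r was 0.53 between LSK total 2 and 1, 0.71 between MP polysomal 2 and 1, 0.73 between MP polysomal 3 and 1, and 0.27 between MP total 2 and 1. Spearman's rho was 0.81, 0.49, 0.71, 0.79 and -0.021 in the same order, so the relation was not seen by rank between the MP total libraries. Over all 12937 tested protein-coding genes with a coding sequence the values were 0.43, 0.34, 0.28, 0.43 and 0.28. These are descriptions across genes, which share libraries and are not independent, so no p is given. With the GC content of the whole coding sequence, which ran from 41.6% in Mrpl1 to 65.6% in Mrpl34, r over the members was 0.70, 0.34, 0.62, 0.55 and 0.14. Over all protein-coding genes the whole coding sequence gave 0.55, 0.20, 0.35, 0.37 and 0.11. Between MP polysomal 3 and 2, r over the members was 0.50 with the window (rho 0.48) and 0.29 with the whole coding sequence. Over all protein-coding genes it was 0.36 and 0.23. The window at the start thus gave the higher r in every pair over the members. Over all genes it gave the lower r between LSK polysomal 2 and 1 and between MP polysomal 2 and 1.

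The 26 members with the most GC-rich starts (63.3% to 74.7%) were all higher in LSK polysomal 2 than in LSK polysomal 1, by a median log2 difference of 2.48. All 26 were also higher in MP polysomal 2 than 1 (median 1.55), and 24 were higher in LSK total 2 than 1 (median 0.67). Between MP total 2 and 1 the same members were split 16 higher against 10 lower (median 0.16), while 19 of the 25 most GC-poor members were higher (median 0.22). Of the 25 members with the most GC-poor starts (42.7% to 56.0%), 5 were higher in LSK polysomal 2 than 1 and 10 were higher in MP polysomal 2 than 1. In MP polysomal 3 all 25 were below MP polysomal 1, with a median log2 difference of -0.66.

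Summed over the GC-rich set, levels were 1119.5 and 1906 CPM in LSK total 1 and 2, 648 and 3105 CPM in LSK polysomal 1 and 2, 2586 and 3019 CPM in MP total 1 and 2, and 873, 2095 and 1902 CPM in MP polysomal 1 to 3. Summed over the GC-poor set they were 1522 and 1525, 2022 and 1657, 2023 and 2271, and 2224, 2147 and 1383 CPM in the same order. The GC-rich sum was thus lowest in LSK polysomal 1 and highest in LSK polysomal 2, while the GC-poor sum was lower in LSK polysomal 2 than in 1.

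Some members departed from the pattern. Mrpl3, the counterpart of bacterial L3, has a start of middling GC content (57.3%), yet stood at 15.0 and 72.8 CPM in LSK total RNA, 14.9 and 146 CPM in LSK polysomal RNA, 57.8 and 140.2 CPM in MP total RNA and 16.4, 30.5 and 124 CPM in MP polysomal RNA. Mrps6 (56.7%) stood at 9.17 and 54.5 CPM in the LSK polysomal libraries. Mrps2, with a GC-rich start (71.3%), stood at 24.8 and 43.9 CPM there, a smaller gap than those of the 3 GC-rich genes shown above.

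**Figure D2:**
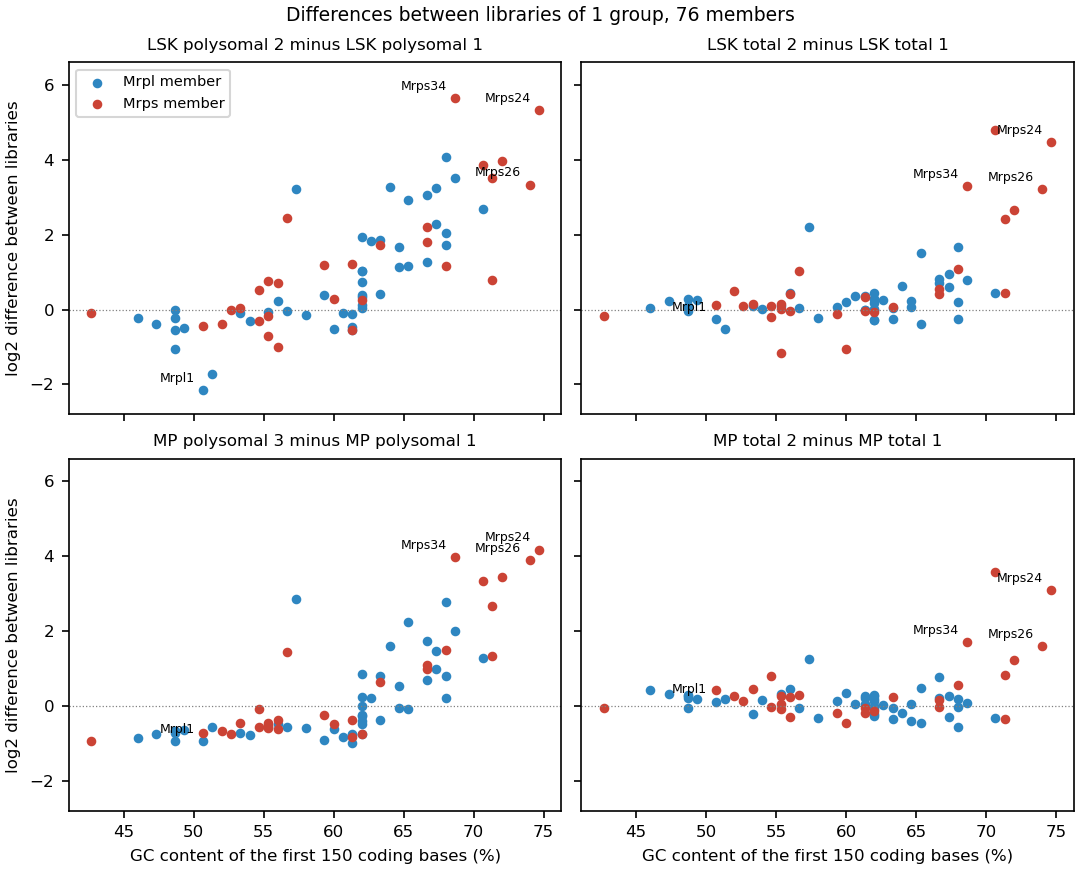
Log2 difference between pairs of libraries of 1 group (vertical axis) against the GC content of the first 150 coding bases in percent (horizontal axis), 1 point per tested member. Members with over 65% GC lie mostly above 0 in both polysomal panels (r 0.75 and 0.73), and MP total RNA shows the weakest relation (r 0.27, rho -0.021).

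Libraries resembled each other across group lines. Over the 76 members' log2 levels, LSK polysomal 1 had an r of 0.98 with MP polysomal 1 and of 0.19 with LSK polysomal 2. LSK total 1 had an r of 0.95 with MP polysomal 2 and of 0.46 with LSK total 2. The same pairs had an r of 0.96, 0.88, 0.93 and 0.89 over all tested genes. Libraries with the same number are not stated to share a mouse, sort or preparation day, and the causes of the resemblance were not tested.

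**Figure D3:**
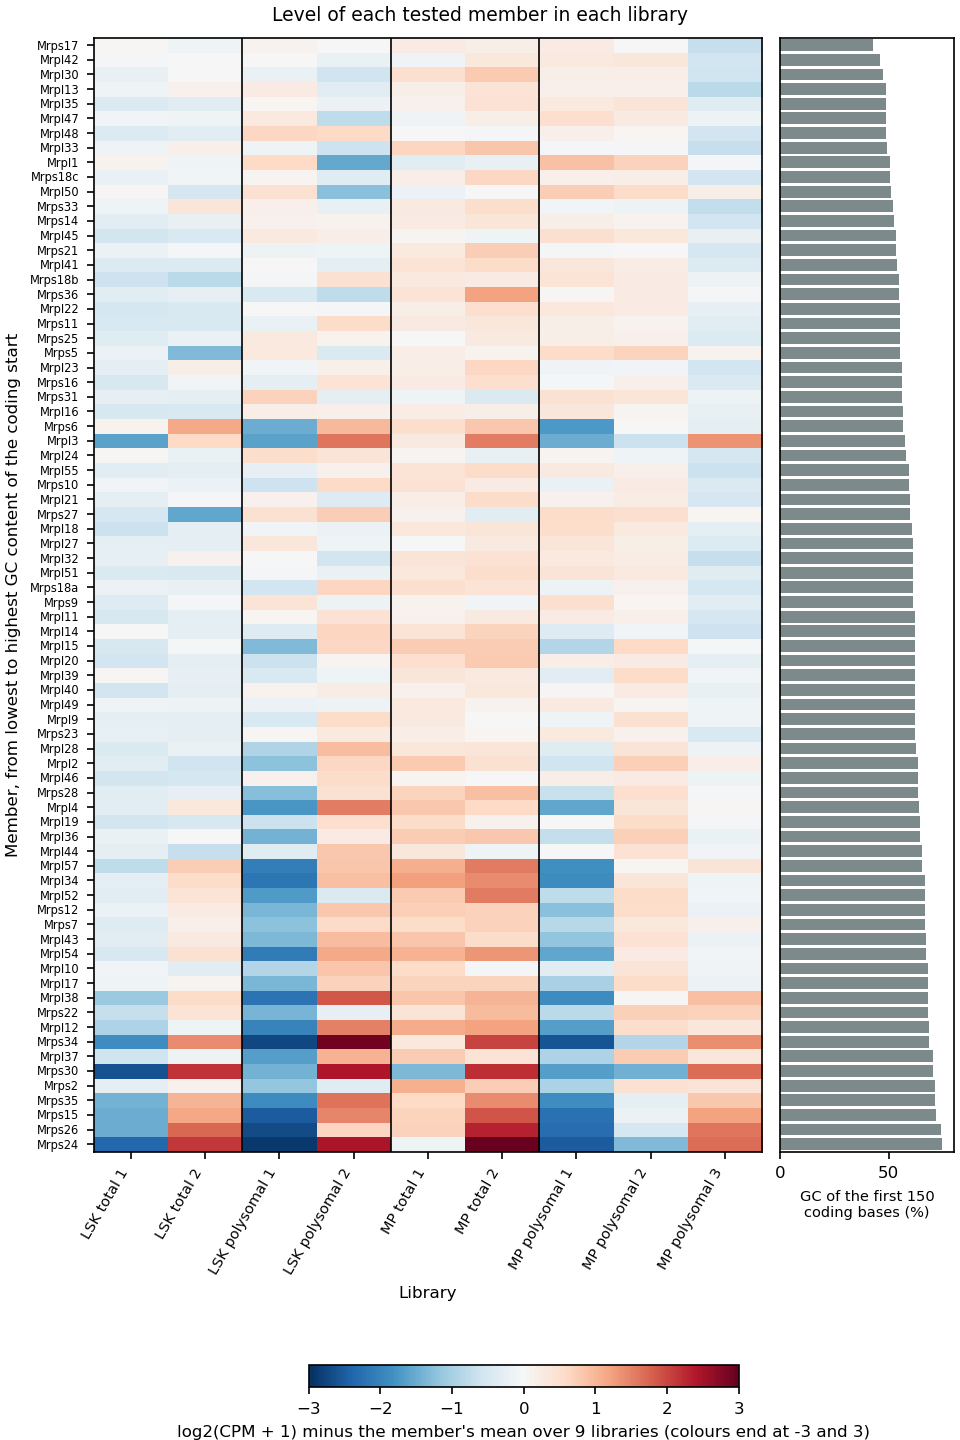
Heat map of log2(CPM + 1) minus each member's mean over the 9 libraries, 1 row per tested member ordered by the GC content of the coding start (grey bars, percent) and 1 column per library, with lines between groups. The lower rows, with GC-rich starts, are mostly blue (low) in LSK polysomal 1 and MP polysomal 1. The 26 with the most GC-rich starts also all lie below their means in LSK total 1, with a median of -0.51.

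Marker genes of other cells also differed between libraries of 1 group. Summed levels of 8 maturing neutrophil genes, all detected in every library, were 17714 CPM in MP polysomal 1 and 14265 CPM in MP total 1, against 511 to 1003 CPM in the other MP libraries and 439.9 to 2403 CPM in LSK cells. Summed levels of 8 B cell genes, of which 6 to 8 had a read in each library, were 3279 CPM in LSK polysomal 2 and 4271 CPM in LSK total 2, against 870 and 597 CPM in LSK polysomal 1 and LSK total 1 and 154 to 356 CPM in MP cells. Their part in the members' levels was not tested. The labels held against defining markers: the 8 stem cell genes, Ly6a and Procr among them, summed to 678 to 1106 CPM in LSK and 46.1 to 66.8 CPM in MP cells. Total counts per library ranged from 27342343 to 34807735.

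Summed over all 77 members, total RNA of LSK cells held 4309 and 5266 CPM and total RNA of MP cells 7306 and 8066 CPM. Polysomal RNA held 4526 and 7484 CPM in LSK cells and 5354, 6795 and 5125 CPM in MP cells. The populations did not overlap in total RNA and overlapped in polysomal RNA. The means were 4788 ± 676 (SD, n = 2) and 7686 ± 538 CPM (n = 2) in total RNA, and 6005 ± 2091 (n = 2) and 5758 ± 906 CPM (n = 3) in polysomal RNA. As a plain share of each library's counts, the members took 0.510% and 0.698% in LSK total RNA and 0.698% and 0.816% in MP total RNA. On that scale LSK total 2 and MP total 1 were level, so the gap in CPM rests in part on the scaling factors, which were 1.18 and 1.33 for LSK total RNA and 0.956 and 1.01 for MP total RNA.

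The members with an Mrpl symbol summed to between 1.91 and 2.42 times those with an Mrps symbol in the 9 libraries. The split is by symbol, so Mrps18a, a large subunit protein, and Mrps36, since assigned to another complex, count as Mrps. The ratio was 2.06 ± 0.219 in LSK total (SD, n = 2), 2.10 ± 0.0658 in LSK polysomal (n = 2), 2.18 ± 0.253 in MP total (n = 2) and 2.21 ± 0.211 in MP polysomal RNA (n = 3), and the ranges of all 4 groups overlapped.

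**Figure D4:**
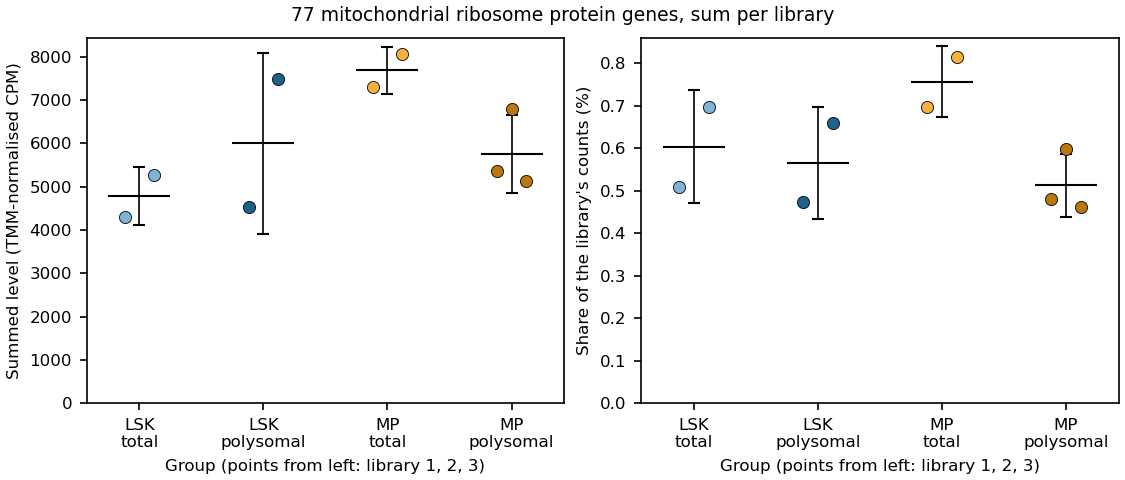
Summed level of the 77 members as CPM (left) and as percent of all counts (right) in each library, by group; points are libraries, lines are means and bars are 1 SD. MP total RNA lies above LSK total RNA in CPM (7306 and 8066 against 4309 and 5266), while the shares of counts touch at 0.698%.

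MP total RNA was set against LSK total RNA to ask how the genes' message levels differ between progenitors and stem cells. With edgeR's quasi-likelihood test, 0 of 76 members passed in either direction, against 0.274% of all tested genes called higher and 0.816% called lower in MP cells. At an unadjusted p under 0.05 there was 1 member, which was higher (4.52% of all genes were), and DESeq2 called 0, with 3 under an unadjusted 0.05. Fitted levels were higher in MP cells for 73 of 76 members, against 49.8% of all tested genes. The median was 0.68 over members, -0.01 over all genes, and 0.28 over 3230 other genes at the members' level. Those are genes with mean levels of 41.8 to 119.6 CPM, limits set from the members' own means with the extremes left out. The libraries did not overlap for 58 members that were higher in MP cells, where 22.8% of all genes did the same, and for 1 that was lower (28.5%).

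Mrpl20, a large subunit protein with a bacterial counterpart, had the smallest p of the comparison. It stood at 70.9 and 86.5 CPM in LSK total RNA and at 151 and 184 CPM in MP total RNA. The groups did not overlap, and the fitted log2 change of 1.09 (SE 0.49) had an adjusted p of 0.292 in edgeR.

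The large subunit's stalk, which recruits translation factors, is built of Mrpl10, Mrpl11 and Mrpl12. Mrpl12, also described as a partner of the mitochondrial RNA polymerase, had the largest fitted change. Its levels were 51.4 and 90.1 CPM in LSK and 215 and 229 CPM in MP total RNA, a log2 change of 1.65 (SE 1.03, adjusted p = 0.468 in edgeR). Mrpl10 stood at 85.9 and 72.1 CPM against 134 and 90.1 CPM, and Mrpl11 at 60.1 and 67.7 CPM against 91.2 and 100.5 CPM. All 3 were higher in MP cells without overlap, and none passed.

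At the tunnel exit, where new proteins leave toward the inner membrane, Mrpl45 stood at 75 and 79.7 CPM in LSK and 116 and 99.6 CPM in MP total RNA. Mrpl44, which resembles a ribonuclease III, stood at 78.5 and 59.9 CPM against 123 and 89.1 CPM. Mrpl41 stood at 44.6 and 44.9 CPM against 79.3 and 88.2 CPM. These 3 had fitted log2 changes of 0.48, 0.62 and 0.91, without overlap between the populations.

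In the small subunit, Mrps12, the counterpart of the decoding protein S12, stood at 45.9 and 61.4 CPM in LSK and at 86.5 and 85.0 CPM in MP total RNA. Mrps16 stood at 46.4 and 61.7 CPM against 77.4 and 91.6 CPM. The 3 relatives of bacterial S18, of which the vertebrate mitochondrial ribosome has Mrps18a in the large subunit and Mrps18b and Mrps18c in the small, stood at 74.4 and 72.6, 30.4 and 26.2, and 46.5 and 50.8 CPM in LSK total RNA. In MP total RNA they stood at 118 and 114, 57.3 and 55.9, and 61.4 and 82.8 CPM. All 5 were higher in MP cells without overlap, by log2 changes of 0.57 to 1.00.

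Mrps36 carries a small subunit symbol but has since been assigned to the oxoglutarate dehydrogenase complex. It stood at 10.7 and 11.6 CPM in LSK and 18.6 and 33.4 CPM in MP total RNA, a log2 change of 1.22 (SE 0.55, adjusted p = 0.295 in edgeR). It has processed copies in the table (Mrps36-ps1, Mrps36-ps2, Mrps36-ps3) with at most 76 reads in a library, so reads may be shared among them. Mrpl1, at a log2 change of -0.27, was the member that was lower in MP total RNA without overlap; its change was 0.49 with the GC trend described below removed.

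The scale mattered here. With library totals alone the median over all genes moved to -0.36 and that over members to 0.32, with 62 of 76 positive in place of 73. Both medians moved down together. By GC content of the coding start, the median log2 change was 0.57 over the 25 GC-poor members and 0.88 over the 26 GC-rich members. Over the 76 members the change had an r of 0.46 with that GC content (0.19 over all protein-coding genes). After a GC trend was removed from each library, a step added after the data were seen, the median was 0.55 with 73 positive.

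In polysomal RNA, MP and LSK cells did not separate. With edgeR 0 of 76 members passed (0.524% of all genes called higher, 2.83% lower), 0 had an unadjusted p under 0.05 (6.09% of all genes higher, 11.7% lower), and DESeq2 gave 0 for both. Fitted levels were higher in MP cells for 30 members, against 48.6% of all genes, and lower for 46, with a median log2 change of -0.07 (all genes -0.03). Without overlap, 2 members were higher and 3 lower, against 15% and 17.4% of all genes. The direction of the median was not fixed: it was 0.26 without LSK polysomal 2, 0.05 without MP polysomal 3 and 0.08 with the GC trend removed.

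Mrpl48, in the central protuberance, had the smallest p in polysomal RNA. It stood at 121 and 120.3 CPM in LSK and at 87.6, 81.4 and 52.4 CPM in MP polysomal RNA, with no overlap. The log2 change was -0.71 (SE 0.42, adjusted p = 0.436 in edgeR). Mrps34 had the lowest fitted change, -1.89 (SE 1.85). Without LSK polysomal 2 that change was 5.30, so it rested on 1 library. Mrps22, a small subunit protein particular to mitochondria, had the highest at 1.10 (SE 0.68), from 13.9 and 32.0 CPM in LSK to 21.6, 63.6 and 62.2 CPM in MP polysomal RNA.

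Polysomal RNA was set against total RNA within each population, the translatome the series is about. Each level is relative to the other genes of its library, so a change is not the share of a gene's messages on ribosomes. In LSK cells 0 of 76 members passed in edgeR (0% of all genes). At an unadjusted p under 0.05 there was 1 higher and 0 lower, against 3.56% and 8.5% of all genes, and DESeq2 gave 0 calls and 1 at an unadjusted 0.05. Fitted levels were higher in polysomal RNA for 56 members, against 50.8% of all genes, with a median log2 change of 0.30 (all genes 0.02, other genes at the members' level 0.26). With library totals alone the medians of members and of all genes moved down together, to -0.11 (27 positive) and -0.36. Without LSK polysomal 2 they were -0.07 and -0.24. There were 20 members higher and 4 lower without overlap, against 16.2% and 20.6% of all genes.

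Mrps27, a small subunit protein particular to mitochondria, had the smallest p. Its levels were 54.3 and 25.6 CPM in LSK total RNA and 106 and 129 CPM in LSK polysomal RNA. In MP cells they were 83.5 and 60.2 CPM in total RNA and 113, 108 and 79.8 CPM in polysomal RNA. The groups were apart in LSK cells and overlapped in MP cells. The log2 change was 1.55 in LSK cells (SE 0.54, adjusted p = 0.287 in edgeR) and 0.48 in MP cells (SE 0.49), and the difference between these 2 changes did not pass (-1.08, SE 0.71, adjusted p = 0.877 in edgeR). Averaged over the populations it was 1.02 (SE 0.36, adjusted p = 0.232 in edgeR). Of its exonic bases 24.2% are shared with another annotated gene. Mrpl48 followed in LSK cells, with a log2 change of 0.99 (SE 0.47), from 59.0 and 62.1 to 121 and 120.3 CPM.

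In MP cells the members leaned the other way. With edgeR 0 of 76 passed (0% of all genes). At an unadjusted p under 0.05 there was 1 lower and 0 higher, against 3.57% and 4% of all genes, and DESeq2 gave 0 calls and 1 at an unadjusted 0.05. Fitted levels were lower in polysomal than in total RNA for 66 members and higher for 10, against 45.3% of all genes higher, with a median log2 change of -0.41 (all genes -0.08, other genes at the members' level 0.09). Without overlap, 32 members were lower, against 16.4% of all genes, and 2 higher, against 16.3%.

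Mrpl33, with 195 coding bases the shortest member, had the smallest p. It stood at 115 and 131 CPM in MP total RNA and at 70.6, 69.9 and 45.0 CPM in MP polysomal RNA, a log2 change of -0.99 (SE 0.44, adjusted p = 0.656 in edgeR). Mrpl52, particular to mitochondria, stood at 68.5 and 118 CPM against 23.0, 58.1 and 37.6 CPM (log2 change -1.24, SE 0.61). Mrps24 had the lowest fitted change, -1.83 (SE 1.79), which was 0.50 without MP total 2. Mrpl1 had the highest, 0.85 (SE 0.66).

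GC content moved with this result too. The median was -0.87 over the 26 GC-rich members and -0.30 over the 25 GC-poor members, with an r of -0.52 over the 76 members (-0.27 over all protein-coding genes), and its part in the result was not tested beyond removing the GC trend. With the GC trend removed the median was -0.35 with 16 positive. Coding length moved with it as well: the longer the coding sequence, the higher the polysomal level relative to total RNA. Over the members r was 0.37 in MP and 0.41 in LSK cells (0.21 and 0.04 over all protein-coding genes). Spearman's rho was 0.37 and 0.51 over the members and 0.39 and 0.09 over all protein-coding genes. By rank the relation in MP cells was thus no stronger in the members than in all genes. Members' coding sequences ran from 195 to 1326 bases.

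The difference between the populations in the polysomal change was negative for 71 of 76 members and positive for 5, against 46.9% of all genes positive, with a median of -0.71 (all genes -0.10). None passed in edgeR (0% of all genes) or DESeq2 and none had an unadjusted p under 0.05 in either, where edgeR gave 4.74% of all genes positive and 0.554% negative. The median was -0.22 without LSK polysomal 2 and -0.43 with the GC trend removed. Mrpl12 had a difference of -2.28 (SE 1.36), which was 0.40 without LSK polysomal 2, and Mrps34 one of -2.8 (SE 2.78), which was 4.38 without it.

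Averaged over both fractions, MP against LSK gave 0 passing members in edgeR (2.72% of all genes called higher and 7.37% lower), 2 higher with an unadjusted p under 0.05 (8.33% of all genes), and 1 call in DESeq2. The share of all genes that DESeq2 called is not given here. The median log2 change was 0.29 (all genes -0.01), and 66 members were positive, against 49.5% of all genes. With library totals alone 45 were positive, with a median of 0.06 (all genes -0.24), and without LSK polysomal 2 the median was 0.52. Mrps36 was the 1 member whose LSK and MP libraries did not overlap over both fractions, at 7.68 to 11.6 CPM in LSK and 13.2 to 33.4 CPM in MP cells, where 4.34% of all genes were higher and 8.51% lower without overlap. Its log2 change was 0.98 (SE 0.37), with an adjusted p of 0.137 in edgeR and 0.0389 in DESeq2. Mrpl52 followed with 1.06 (SE 0.47, adjusted p = 0.202 in edgeR).

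Polysomal against total RNA, averaged over the populations, gave a median of -0.06 (all genes 0.03) with 33 members positive, against 51.6% of all genes. With library totals alone 11 were positive, with a median of -0.34 (all genes -0.23). The median was 0.03 without LSK total 2 and -0.34 without LSK polysomal 2. None passed in edgeR (0% of all genes), 1 was higher and 1 lower at an unadjusted p under 0.05, against 4.65% and 10.2% of all genes, and DESeq2 gave 0 calls and 3 at an unadjusted 0.05. The libraries overlapped for every tested member, where 1.34% of all genes were higher and 4.9% lower without overlap. Mrpl52 was the lower one, at -1.14 (SE 0.46, adjusted p = 0.283 in edgeR).

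**Figure D5:**
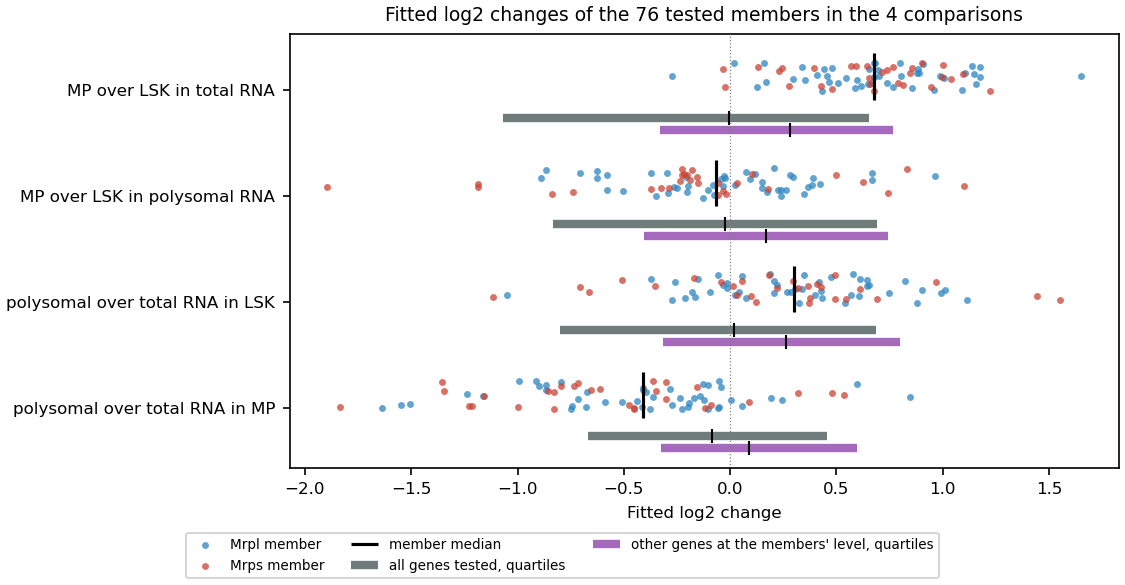
Fitted log2 changes of the 76 tested members (points; blue Mrpl, red Mrps) in 4 comparisons, with the member median (black line) and the quartiles and median of all tested genes (grey) and of other genes at the members' level (purple). The member median is 0.68 in total RNA between populations, -0.07 in polysomal RNA, 0.30 for polysomal over total RNA in LSK and -0.41 in MP cells.

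Mrpl53 was the member that did not pass the filter on low counts. Its reads numbered 15 and 7 in LSK total RNA, 9 and 6 in MP total RNA, 0 in both LSK polysomal libraries, and 0, 1 and 0 in the MP polysomal libraries. In LSK cells the total level was 5.34-fold a polysomal level of 3 reads over the group, taken as the limit that a count of 0 allows. The counting error of the total reads is not part of that ratio. In MP cells the ratio of the total to the polysomal level was 22.4 (95% exact Poisson interval 3.45 to 944, counting error only). Without the filter, edgeR gave a log2 change for polysomal over total RNA of -5.14 averaged over populations (SE 1.46, adjusted p = 0.0225), which depends on the prior count. Of its exonic bases 88.0% are shared with other annotated genes, one of them antisense, and the counting of such bases is not stated.

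Members with a bacterial counterpart (47 tested) and those particular to mitochondria (29 tested) had these medians in the 4 simple comparisons: 0.68 and 0.70 in total RNA, -0.06 and -0.13 in polysomal RNA, 0.30 and 0.32 for polysomal over total RNA in LSK cells, and -0.45 and -0.35 in MP cells. Members with Mrpl and Mrps symbols had medians of 0.68 and 0.68, -0.03 and -0.18, 0.30 and 0.30, and -0.38 and -0.61. Mrps36 was kept in both splits. The differences between these sets were not tested.

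Other gene groups give the scale. The 84 tested cytosolic ribosomal protein genes had medians of 0.44 in total RNA between populations, -0.03 in polysomal RNA, -0.49 for polysomal over total RNA in LSK and -0.89 in MP cells. The 78 nuclear genes of respiratory chain subunits had 0.78, 0.06, 0.02 and -0.65. None of either group passed in these comparisons in edgeR. The comparisons share libraries, and differences between gene groups were not tested.

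The rest of the mitochondrial translation machinery was described by lists. Of 5 ribosome proteins with other symbols, 19 translation factors, 26 assembly and rRNA modification factors, 17 aminoacyl-tRNA synthetases and 15 transcription and RNA processing genes, none passed in any comparison in edgeR, where the share of all genes called in 1 direction ran from 0% to 7.37%. Dap3, the GTP-binding protein of the small subunit, had the smallest p of the first group. It stood at 92.4 and 110.8 CPM in LSK total and 226 and 327 CPM in LSK polysomal RNA, a log2 change of 1.44 (SE 0.45, adjusted p = 0.251 in edgeR). Gadd45gip1, of the large subunit, showed the library pattern of the GC-rich members, at 3.55 and 132 CPM in LSK polysomal 1 and 2; it and Ict1 were chosen after their values were seen. Ict1, the rescue factor also called Mrpl58, stood outside the symbol rule, at 32.0 and 46.7 CPM in LSK total and 86.6 and 71.5 CPM in MP total RNA.

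Gatc, a subunit of the amidotransferase that charges mitochondrial glutamine tRNA, stood at 32.9 and 52.5 CPM in LSK total RNA and 9.73 and 7.31 CPM in LSK polysomal RNA. Averaged over populations its polysomal change was -1.89 (SE 0.39, adjusted p = 0.107 in edgeR). Gfm1, a mitochondrial elongation factor, had a log2 change of 1.09 between MP and LSK averaged over fractions (SE 0.37, adjusted p = 0.0992 in edgeR). Of 12 regulators of mitochondrial gene programmes, 1 passed, which is near the share of all genes called lower in that comparison (7.37%). It was Ppargc1a, a coactivator of mitochondrial biogenesis. It fell by 4.94 on the log2 scale in MP relative to LSK cells averaged over fractions (adjusted p = 0.0237 in edgeR), from low levels, with 8 to 129 reads per LSK library and 0 to 4 per MP library.

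Levels of different genes can be compared only per length, and the order depended on which length was used. Per kilobase of coding sequence, Mrps14 had the highest mean level over the 9 libraries at 461 ± 91.5 CPM per kb (SD over libraries). Mrpl36, Mrpl33, Mrpl18 and Mrps17 followed at mean levels of 396 ± 177, 395 ± 147, 363 ± 96.7 and 327 ± 55.6 CPM per kb. These neighbours did not differ beyond their spread: Mrps14 ran from 304 to 584 CPM per kb, Mrpl36 from 132 to 623 and Mrpl33 from 231 to 672. The lowest mean levels were those of Mrpl53 at 0.358 ± 0.454, Mrps34 at 24.7 ± 29.8, Mrps30 at 29.5 ± 31.5, Mrps22 at 40.6 ± 20.1 and Mrpl23 at 40.9 ± 10.1 CPM per kb. The place of Mrps30 differed between libraries, in which it ran from 1.54 to 75.2 CPM per kb. Per kilobase of the whole transcript, a divisor added after the data were seen, Mrpl42 was highest at 185 ± 35.9 CPM per kb, followed by Mrpl28, Mrpl33 and Mrpl18 at 162 ± 63.8, 161 ± 60.1 and 161 ± 42.8. On that scale Mrps14, with 384 coding bases in a transcript of 2999, was in place 35 at 59.1 ± 11.7 CPM per kb, and Mrps17, with 360 in 5061, in place 61.

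The genes lie on 17 chromosomes, with 10 on chromosome 11. Within 1000 bases of the start, 33 of 77 (42.9%) have the start of another protein-coding gene on the opposite strand, as have 10.9% of 21951 protein-coding genes in the annotation. In 1 pair both genes are members: Mrpl46 (chr7:78775236-78783531, minus) and Mrps11 (chr7:78783119-78792989, plus), with 412 bases between their overlapping starts. Mrps11 stood at 38.3 and 38.4 CPM in LSK total, 45.8 and 78.3 CPM in LSK polysomal, 64.0 and 66.8 CPM in MP total and 59.7, 57.2 and 41.9 CPM in MP polysomal RNA. Mrpl46 stood at 50.2 and 51.2, 80.8 and 109, 78.2 and 75.1, and 85.3, 87.8 and 65.9 CPM in the same order. Both were higher in MP than in LSK total RNA and higher in polysomal than in total RNA of LSK cells without overlap. In all, 32 members share exonic bases with another gene, 18 of them over 10%.

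RefSeq promoters (GRCm38.p6) were matched for 68 of 77 members, each as 250 bases before and 50 after the start. The ETS motif CCGGAAG, the core bound by GABP, was found on either strand in 33.8% of them, against 12.2% of 16003 protein-coding genes, 40.3% of 62 cytosolic ribosomal protein genes and 23.8% of 63 respiratory chain genes. The NRF1 motif was found in 4.41% of members, 1.38% of protein-coding, 1.61% of cytosolic ribosomal and 7.94% of respiratory chain genes. The YY1 motif was found in 7.35%, 1.02%, 0% and 6.35% of them. A C at the start followed by at least 4 pyrimidines, as in messages with a terminal oligopyrimidine tract, was found in 0 of 68 members, in 19.4% of cytosolic ribosomal protein genes, in 4.76% of respiratory chain genes and in 2.17% of protein-coding genes. That last rule reads the exact first base of a single annotated start per gene. A start annotated a few bases off is therefore missed, and the shares do not show how many genes have such a tract. A motif match describes letters in a window and is not a binding site. The 250 bases upstream of the members with the smallest p for polysomal over total RNA averaged over populations, higher (Mrps27, chr13:99344536-99344785, plus) and lower (Mrpl52, chr14:54426659-54426908, plus), are shown with the ETS match in capitals.
Mrps27: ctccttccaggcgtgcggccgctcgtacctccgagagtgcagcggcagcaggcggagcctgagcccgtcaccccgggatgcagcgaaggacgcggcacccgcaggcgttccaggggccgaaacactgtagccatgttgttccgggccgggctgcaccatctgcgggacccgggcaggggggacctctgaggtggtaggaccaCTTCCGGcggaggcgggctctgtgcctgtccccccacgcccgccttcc
Mrpl52: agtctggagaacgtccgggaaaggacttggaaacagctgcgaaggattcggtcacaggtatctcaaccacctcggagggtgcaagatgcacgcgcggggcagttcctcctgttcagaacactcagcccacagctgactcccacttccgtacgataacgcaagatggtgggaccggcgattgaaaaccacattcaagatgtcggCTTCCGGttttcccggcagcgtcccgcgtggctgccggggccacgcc
Both hold the reverse complement of the motif, at 48 and 47 bases before the start, and their fitted changes had opposite signs.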

How the data were processed

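RNA was amplified with a SMARTer kit and sequenced, per the labels' protocols. Among the tools in the submitters' processing notes are STAR, featureCounts, bcl2fastq and DESeq2, with the mm10 (GRCm38) build. Their versions, the annotation and the strandedness of counting were not given in the sources used here. The authors deposited raw read counts per gene and, separately, normalized log2 values, used here only as an alternative. The 9 libraries held 27342343 to 34807735 counts.

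All 47480 genes were filtered with edgeR's filterByExpr (minimum count 10, total 15), leaving 16426, and scaled with TMM factors. One model over the 4 groups was fitted with edgeR 4.0.16 (R 4.3.3, limma 3.58.1) by quasi-likelihood, with 5 residual degrees of freedom, and 7 contrasts were tested with Benjamini-Hochberg adjustment over all genes at 0.05. The fit gives no standard error, so each SE of a log2 change is its absolute value divided by the square root of the test's F statistic. Exact Poisson intervals and the 3-read limit cover counting error only. Alternatives included DESeq2 1.42.0, other scalings and filters, a replicate block, each library left out and, chosen after seeing the data, a GC trend (spline with 4 degrees of freedom) removed from each library. The scripts were tested on simulated data.

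Members and gene lists were chosen with earlier results of these data known. Named members are those called, the 5 with the largest or smallest change or smallest p of a comparison, members with a role of their own, the 5 highest and lowest per kb, and the untested member; list genes are named where called or among the 2 smallest p. RefSeq promoters of 9 members and all protein sequences were not used here.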

Additional observations from a re-analysis of the deposited data

How the results depend on the processing

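The median change of members in total RNA between populations was positive under all 20 alternatives tried, and that for polysomal over total RNA in MP cells was negative under all 20. In total RNA it was 0.32 with library totals alone and 0.48 with a filter at a mean of 10 CPM. Averaged over populations, the polysomal median was -0.34 with library totals alone and -0.34 without LSK polysomal 2. With 1 library left out at a time, medians ranged from 0.54 to 0.79 in total RNA, from -0.21 to 0.26 in polysomal RNA, from -0.07 to 0.43 for polysomal over total RNA in LSK, from -0.57 to -0.28 in MP, from -0.87 to -0.22 for the interaction, from 0.22 to 0.52 for the population averaged over fractions and from -0.34 to 0.027 for the fraction averaged over populations. The count of members called was 0 in each of these.

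A member was called under 3 alternatives: for the populations averaged over fractions, 1 in DESeq2 (Mrps36, log2 change 1.00, adjusted p = 0.0389) and 1 with the GC trend removed and a replicate block (Mrpl52, 1.07, adjusted p = 0.0437 in edgeR), and for the fractions, 1 with no filter (Mrpl53, adjusted p = 0.0225 in edgeR). The shares of all genes called in those 3 fits are not given here, so the single calls cannot be set against them. With the replicate block alone 0 members were called and the medians, in the order above, were 0.72, 0.05, 0.09, -0.30, -0.55, 0.37 and -0.11. The labels state no shared source for the numbers, so they were not taken to pair the samples. Deviations from the group means over all genes correlated in all 6 pairs of libraries numbered 1 (r 0.28 to 0.71) and in 3 of 6 numbered 2 (0.28 to 0.71). The other 3 (r -0.083 to -0.56) all held MP polysomal 2, and MP polysomal 3 went with the other libraries numbered 2 (0.62 to 0.72). In groups of 2 the deviations mirror each other.

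Signs of single members turned. Mrpl1 in total RNA was 0.49 with the GC trend removed and 0.51 with the replicate block added. With 1 library left out at a time, Mrps34 ranged from -3.99 to 5.30 in polysomal RNA and from -5.98 to 4.38 in the interaction, and Mrpl12 from -2.99 to 0.40 in the interaction, each at its highest without LSK polysomal 2. Mrps26 ranged from -3.88 to 1.38 for polysomal over total RNA in LSK and from -2.61 to 0.021 averaged, highest without LSK total 2. Mrps24 in MP cells ranged from -4.20 to 0.50, highest without MP total 2. Mrps30 between populations averaged over fractions ranged from -1.95 to 1.66, highest without LSK total 2, and was 1.06 without LSK polysomal 2. The cause was not tested. Mrps34 had 6 reads in 1 library and Mrpl53 at most 15 in any, which limits what their values can show.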
